A study of Rattus norvegicus and Mus musculus with 12 samples.

Results

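Plasminogen activation and the HtrA serine proteases were followed in chondrocytes through 7 genes, taken as every row of the rat and mouse tables whose gene name was Plau, Plat, Plaur, Serpine2, Serpinb2, Htra1 or Htra3. Each name had a single row in each table, so that 7 of 19687 rat genes and 7 of 28603 mouse genes are described. RNA-seq had been run on chondrocytes of articular cartilage from newborn SD rats and C57BL/6 mice, used at passage 1, to compare both species as in vitro models of osteoarthritis. The RC (rat control) and MC (mouse control) groups were unstimulated, whereas the RM (rat model) and MM (mouse model) groups had been kept for 24 h with the inflammatory cytokine IL-1β at 20 ng/ml. Each group had 3 libraries, described as independent samples, and the strain labels of the mouse libraries run from C57BL/6 to C57BL/9 although the methods name C57BL/6 alone. Reads counted on genes were 21114361 to 24897458 per library in RC, 20169272 to 25903459 in RM, 16841580 to 17957308 in MC and 17482589 to 20048322 in MM.

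Urokinase and tissue plasminogen activator, encoded by Plau and Plat, are secreted serine proteases that cut plasminogen into plasmin, which dissolves fibrin, degrades matrix proteins and activates latent matrix metalloproteinases. Plaur encodes the receptor that holds urokinase at the cell surface, and serpins such as protease nexin 1 (Serpine2) and PAI-2 (Serpinb2) block the activators by binding them irreversibly. HtrA1 and HtrA3 are secreted serine proteases outside this cascade, and HtrA1 is known in cartilage for cleaving matrix proteins such as aggrecan, decorin and fibronectin.

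Levels are given as FPKM, the count divided by the gene's length and by the library's total count. They compare genes within a species, but not the species with each other, because the gene lengths behind them differ (for Serpine2, 2146 bases in rat and 8287 in mouse). Changes are log2 fold changes of model over control from edgeR's quasi-likelihood test on the counts, with TMM scaling and P adjusted over all genes tested, and a gene was called at an adjusted P under 0.05. Library size alone, the scaling inside FPKM, shifted the mouse log2 fold changes by a median of -0.279 against TMM and the rat ones by 0.0159. Folds of FPKM in mouse are therefore lower than the tested changes, which are relative to that shift.

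The RC libraries differed most among themselves. By a chi-square per degree of freedom over genes, which sampling noise alone puts near 1 and which grows with depth, the distance was 28.1 between RC1 and RC2, 16.1 between RC1 and RC3 and 12.4 between RC2 and RC3. It was 6.04 to 6.59 in RM, 1.89 to 2.49 in MC and 2.08 to 2.49 in MM. Without RC1 the rat genes called rose from 4667 to 6251, whereas leaving out any other rat library lowered them to between 3303 and 3854. All 7 genes were still called in rat without RC1, with log2 fold changes of -0.33 for Plau, 1.05 for Plat, 0.37 for Plaur, 0.63 for Serpine2, 0.95 for Serpinb2, 0.32 for Htra1 and -0.88 for Htra3.

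All 7 genes were called in both species, which has to be read against the share of all genes called, 35.1% of 13303 genes tested in rat and 75.0% of 14774 in mouse. In rat, 5 of the genes were higher in RM and 2 lower, where 18.3% of all genes were higher and 16.8% lower. In mouse, 4 were higher in MM and 3 lower, against 37.4% and 37.7% of all genes. The count in mouse is thus close to the background. The FPKM of model and control did not overlap for any of the 7 genes in either species, as held for 47.8% of all rat genes tested and 80.3% of mouse genes. The study's criteria for DEGs, which name a fold change above 0.85, were taken here to mean log2 changes of 0.85 or more either way, an unadjusted P under 0.05 and a level of 1 FPKM or more in some library. They were applied to the edgeR fits made here, so the calls need not match the paper's own. By these criteria 1 of the 7 genes, Plat, was a DEG in rat, against 8.54% of all genes tested. In mouse 4 of 7 were DEGs, against 25.6% of all genes, with Plaur, Plat and Serpinb2 up and Htra3 down.

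**Figure D1:**
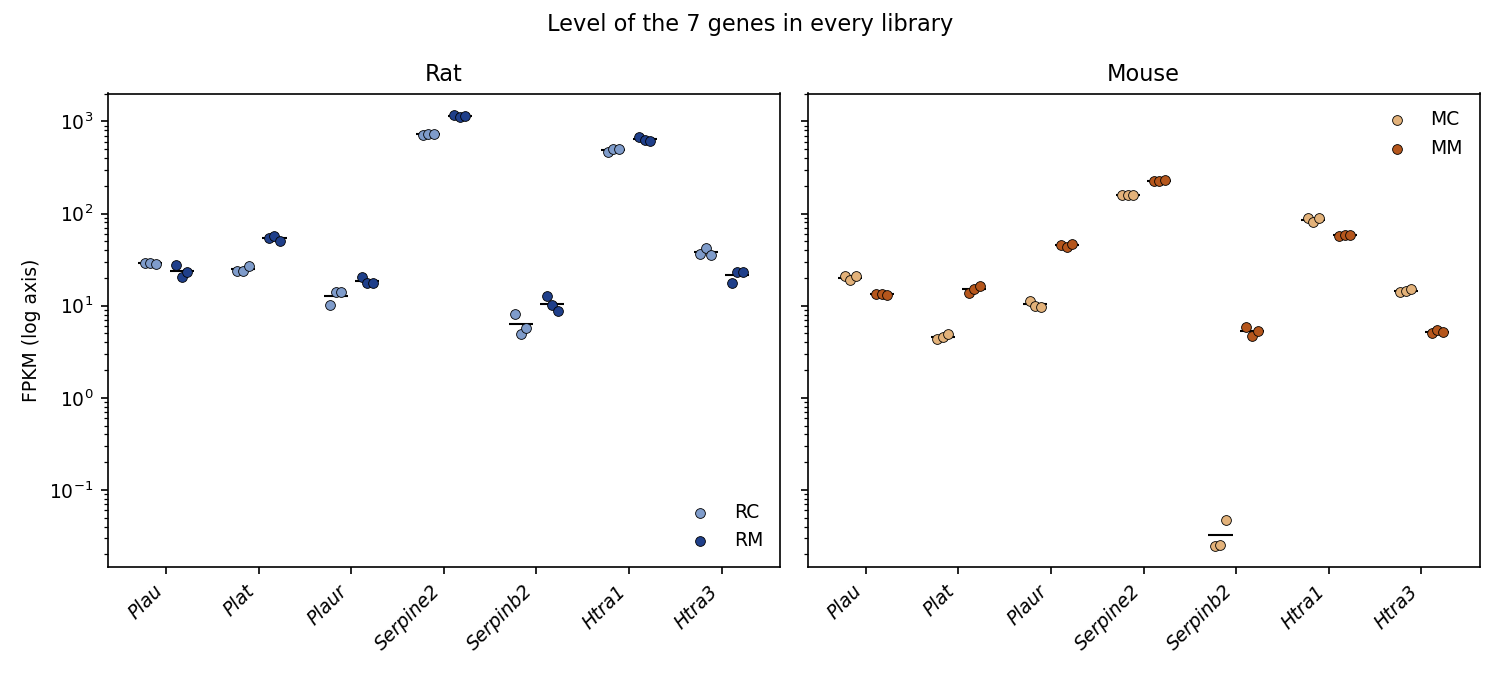
FPKM (log axis) of the 7 genes in each of the 12 libraries, with rat on the left and mouse on the right. Points are libraries and horizontal bars are group means over 3 libraries. Serpine2 and Htra1 were the most abundant of the 7 genes in every group, and Serpinb2 in MC lay near 0.03 FPKM.

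The activators changed in opposite directions, Plau down and Plat up, in both species. Plau (ENSRNOG00000010516 in rat, ENSMUSG00000021822 in mouse, chr14:20836660-20843385, + strand, GRCm38) had FPKM values of 29.3, 29.1 and 28.7 in the RC libraries and 27.3, 20.5 and 22.9 in RM. The highest RM library lay just below the lowest RC library. In RM it was lower, by a log2 fold change of -0.32 (SE 0.10, 95% interval -0.54 to -0.09, adjusted P = 0.0325 by edgeR). This call was not held by every library. The adjusted P rose to 0.0588 without RC2, 0.0811 without RC3, 0.145 without RM2 and 0.102 without RM3, and the changes were then -0.32, -0.33, -0.23 and -0.29. In mouse, Plau stood at 20.8, 18.8 and 20.9 FPKM in MC and 13.4, 13.5 and 13.001 in MM. All MM libraries were below all MC libraries, with a log2 fold change of -0.32 (SE 0.06, edgeR adjusted P = 2.85e-06). With library size alone the mouse change was -0.60.

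Plat (ENSRNOG00000019018, ENSMUSG00000031538, chr8:22757727-22782844 in mouse, + strand) had FPKM values of 23.5, 24.1 and 26.8 in RC and 54.7, 56.6 and 50.4 in RM. The groups were far apart, at a mean of 24.8 ± 1.73 (SD, n = 3) against 53.9 ± 3.18, and the log2 fold change was 1.10 (SE 0.08, edgeR adjusted P = 3.92e-06). In the RefSeq annotation of GRCr8, a rat build later than that of the counts, the span of Plat overlaps those of Ikbkb and LOC108348292, that of Plau overlaps LOC120096900 and that of Htra1 overlaps LOC134485181. These are overlaps of spans and not of exons, and use of strand in counting is not given in the sources used here. Whether the rat counts of these members gained or lost reads there was not tested. Ikbkb itself had 3044 counts over RC and 3440 over RM and was not called. In mouse, Plat stood at 4.40, 4.60 and 4.87 FPKM in MC and 13.8, 15.0 and 16.2 in MM, with a log2 fold change of 1.98 (SE 0.05, edgeR adjusted P = 5.42e-41). Both transcripts were therefore present in every library, and their proportion moved. Of the summed FPKM of the pair, Plau made up 54.0% ± 1.99 (SD, n = 3) in RC and 30.4% ± 3.42 in RM. The share was 81.3% ± 1.13 in MC and 47.0% ± 2.40 in MM, values given as a description with no test.

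The urokinase receptor rose in both species, and more in mouse. Plaur (ENSRNOG00000037931, ENSMUSG00000046223, chr7:24462484-24475968 in mouse, + strand) had FPKM values of 10.2, 14.0 and 14.0 in RC and 20.5, 17.6 and 17.6 in RM. RC1 and RM1 lay farthest apart, and the groups did not overlap. The log2 fold change was 0.53 (SE 0.13, edgeR adjusted P = 0.0119), and without RM1 it was 0.45 with an adjusted P of 0.0618, which is not past the test. In mouse the values were 11.2, 10.01 and 9.72 FPKM in MC and 45.8, 43.6 and 46.5 in MM. Every MM library was several times above every MC library, with a log2 fold change of 2.42 (SE 0.05, edgeR adjusted P = 1.17e-47).

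Of the inhibitors, Serpine2 was the most abundant of the 7 genes and rose in both species. Serpine2 (ENSRNOG00000015461, ENSMUSG00000026249, chr1:79794197-79861180 in mouse, - strand) encodes protease nexin 1, which inhibits thrombin, urokinase and tissue plasminogen activator. Its FPKM values were 718, 730 and 723 in RC and 1173, 1123 and 1149 in RM. The libraries of a group lay within a few percent of each other, and the log2 fold change was 0.65 (SE 0.05, edgeR adjusted P = 8.54e-06). In mouse they were 160.0, 160.3 and 157.6 FPKM in MC and 224, 224 and 233 in MM, with a log2 fold change of 0.79 (SE 0.02, edgeR adjusted P = 4.48e-38). The groups were separate in mouse too, and with library size alone the mouse change was 0.51.

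Serpinb2 (ENSRNOG00000002460, ENSMUSG00000062345, chr1:107511423-107535478 in mouse, + strand), which encodes PAI-2, a largely intracellular inhibitor of urokinase, differed most between the species among the 7 genes. In rat it was present in both groups, at 8.10, 4.89 and 5.76 FPKM in RC and 12.8, 10.1 and 8.69 in RM. The highest RC library came close to the lowest RM library. The log2 fold change was 0.73 (SE 0.19, edgeR adjusted P = 0.0134), but 0.68 with an adjusted P of 0.0617 without RC3 and 0.57 with 0.0688 without RM1. In mouse, the MC libraries held 1, 1 and 2 counts of Serpinb2 and the MM libraries 276, 213 and 220. This is 0.0249, 0.0253 and 0.0474 FPKM in MC against 5.86, 4.64 and 5.36 in MM. The gene was thus almost undetected in mouse control chondrocytes and detected in every stimulated library. With 4 counts over MC and 709 over MM, the TMM-scaled ratio was 196 (exact 95% interval 76.1 to 720, counting error only). The fitted log2 fold change of 7.48 (SE 0.29, edgeR adjusted P = 3.13e-33) depends on the prior count. In GENCODE M21, 291 exonic bases of mouse Serpinb2 are shared with Serpinb10, to which 1 read was assigned over MC and 7 over MM.

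Htra1 changed in opposite directions in the species, as the single member to do so. Htra1 (ENSRNOG00000020533, ENSMUSG00000006205, chr7:130936111-130985660 in mouse, + strand) had FPKM values of 468, 500.1 and 501 in RC and 680.3, 623 and 617 in RM. All RM libraries were above all RC libraries, with a log2 fold change of 0.37 (SE 0.06, edgeR adjusted P = 0.00129). In mouse the values were 88.4, 80.4 and 88.8 FPKM in MC and 56.9, 58.2 and 58.3 in MM. Here all stimulated libraries were lower, with a log2 fold change of -0.29 (SE 0.04, edgeR adjusted P = 4.03e-11). With library size alone the changes were 0.39 and -0.57, so that neither direction turned with the scaling. Among 10912 genes tested in both species, 7.29% were higher in rat and lower in mouse and 5.18% the reverse, whereas 9.28% were higher in both and 10.1% lower in both.

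Htra3 (ENSRNOG00000008182, ENSMUSG00000029096, chr5:35652023-35679782 in mouse, - strand), which encodes a close relative of HtrA1, fell in both species. Its FPKM values were 36.3, 42.2 and 35.1 in RC and 17.6, 23.4 and 23.5 in RM. The groups did not overlap, and the log2 fold change was -0.83 (SE 0.12, edgeR adjusted P = 0.000391). In mouse they were 14.0, 14.3 and 15.1 FPKM in MC and 5.07, 5.45 and 5.15 in MM, with a log2 fold change of -1.19 (SE 0.06, edgeR adjusted P = 2.30e-27). The ratio of Htra1 to Htra3 FPKM was 13.01 ± 1.23 (SD, n = 3) in RC and 30.5 ± 7.11 in RM, and 5.95 ± 0.357 in MC and 11.1 ± 0.343 in MM. It was thus higher in the stimulated libraries of both species, as a description with no test.

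**Figure D2:**
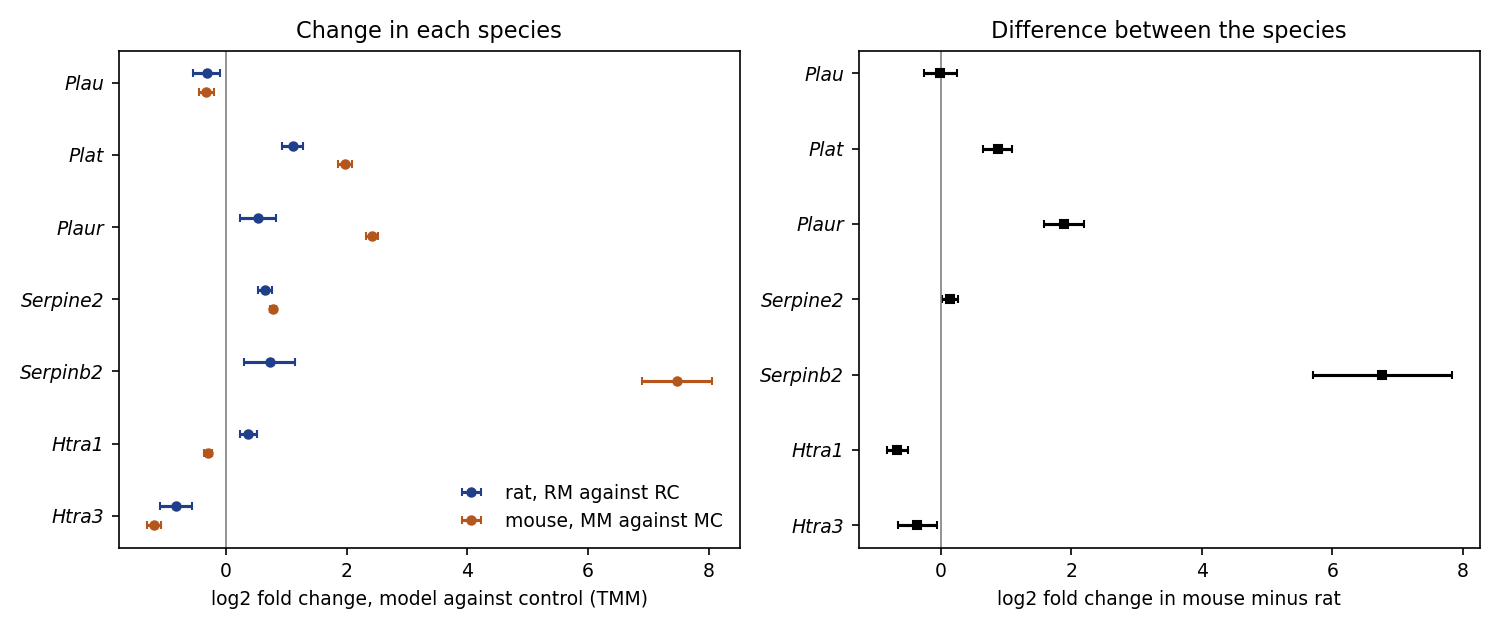
Left, log2 fold change of model over control (TMM scaling) for each gene in rat and mouse. Right, the mouse value less that of rat. Points are estimates and bars are 95% intervals. Htra1 lies on opposite sides of 0 in the species, and the interval of Plau in the right panel spans 0.

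Mouse and rat responses were compared directly, as mouse minus rat, in a single fit of the 10912 genes tested in both species. All groups shared an estimate of each gene's spread in that fit, although the rat libraries varied more than the mouse ones. The difference passed the test for 5 of the 7 genes, 3 with a greater value in mouse and 2 with a lower one, where 63.8% of all genes tested differed. Plaur differed by 1.89 (SE 0.14, edgeR adjusted P = 5.55e-09), Plat by 0.87 (SE 0.10, adjusted P = 1.47e-06) and Serpinb2 by 6.77 (SE 0.50, adjusted P = 3.67e-09), the last resting on 4 counts in MC. These are the receptor, an activator and an inhibitor. Htra1 differed by -0.66 (SE 0.08, edgeR adjusted P = 9.47e-07) and Htra3 by -0.36 (SE 0.14, adjusted P = 0.0348). The Htra3 difference was not past the test without RC3, RM2, RM3, MC2, MC3, MM1 or MM3, with adjusted P up to 0.0968. For Plau the difference was -0.003 (95% interval -0.26 to 0.25, edgeR adjusted P = 0.983), and with library size alone it was -0.30 with an adjusted P of 0.0373. For Serpine2 it was 0.14 (95% interval 0.01 to 0.27, edgeR adjusted P = 0.0507), and with library size alone it turned to -0.16 with an adjusted P of 0.0291, while DESeq2 gave 0.15 with an adjusted P of 0.0101. It also passed the test without RC1 (0.16, adjusted P = 0.0254), RC2 (0.14, 0.0346) or RM1 (0.15, 0.0456). Whether Plau and Serpine2 differed between the species therefore depended on the scaling, and for Serpine2 also on the tool and on single libraries.

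**Figure D3:**
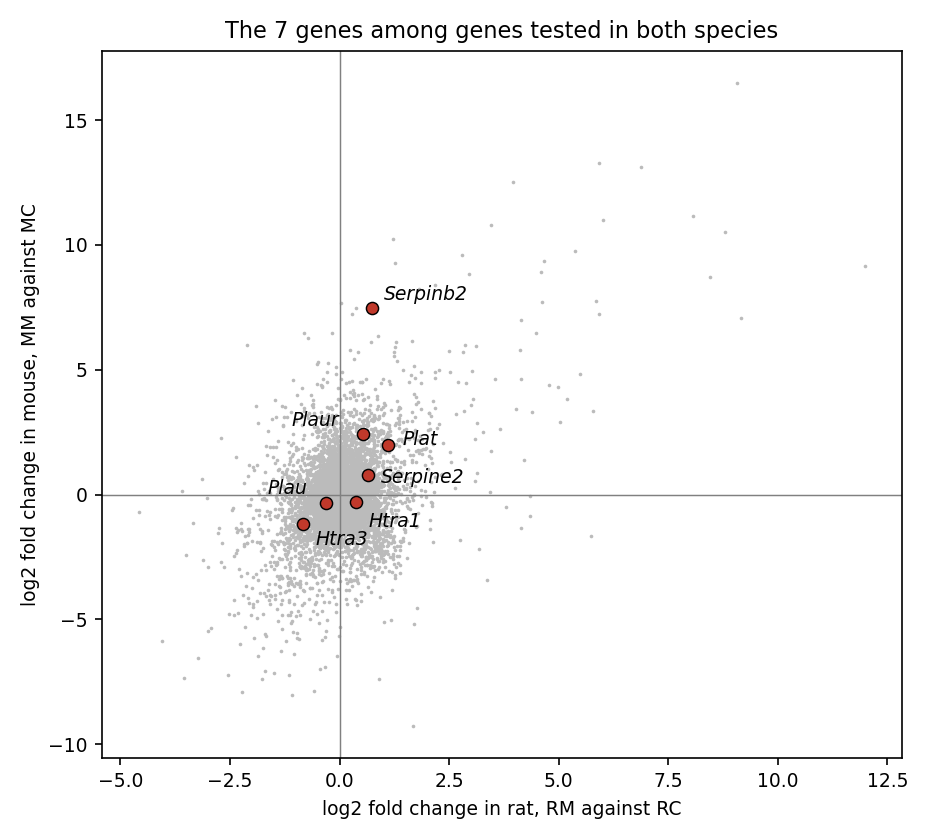
Log2 fold change in rat (RM against RC, x axis) and in mouse (MM against MC, y axis) for the 10912 genes tested in both species, each a grey point. The 7 genes are in red. Serpinb2 lies highest of the 7 in mouse, at 7.48, with 0.73 in rat.

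The order of levels within a group also moved. In RC it ran from Serpine2 through Htra1, Htra3, Plau, Plat and Plaur to Serpinb2, and no neighbours overlapped in their libraries. In RM, Plat followed Serpine2 and Htra1 and stood above Plau, Htra3, Plaur and Serpinb2, and the ranges of Plau and Htra3 and of Htra3 and Plaur overlapped. In MC the order was Serpine2, Htra1, Plau, Htra3, Plaur, Plat and Serpinb2, with no overlap. In MM, Plaur and Plat stood above Plau, and Serpinb2 and Htra3, at the bottom, overlapped. Serpine2 was 1.48 times the mean FPKM of Htra1 in RC and 1.79 times in RM, and 1.85 times in MC and 3.93 times in MM.

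Among the 12 libraries, a few genes had profiles closest to each member, by the Euclidean distance of log2(FPKM + 1) values centred within each species over 10911 other genes. This scale understates changes of genes at low levels. They were Srgap1 and Ptpn13 for Plau (distances 0.213 and 0.250), Grb14 and Ugdh for Plat (0.277 and 0.284), and Jmjd6 and Pgm1 for Plaur (0.306 and 0.335). For the inhibitors they were Traf3 and Specc1 for Serpine2 (0.172 and 0.194) and Mdm2 and Pla2g4a for Serpinb2 (0.463 and 0.480). For the HtrA genes they were Gdpd5 and Aass for Htra1 (0.150 and 0.161) and Tgfbi and Barx1 for Htra3 (0.320 and 0.327). Nearness did not mean equal fold changes. In mouse, log2 fold changes were -0.87 for Gdpd5 and -2.65 for Aass against -0.29 for Htra1. They were 2.91 for Mdm2 and 3.20 for Pla2g4a against 7.48 for Serpinb2. The genes nearest the other members lay closer to them in mouse fold change. The median distance of all other genes was 0.918 from Plau, 2.55 from Plat, 2.90 from Plaur, 1.33 from Serpine2, 3.62 from Serpinb2, 0.906 from Htra1 and 1.83 from Htra3.

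RefSeq promoters of the rat build GRCr8 were matched for 6 of the 7 genes, all but Plat. The 250 bases before the start are shown for Plaur and Serpinb2, which rose in both species and differed most between them, and for Htra1, which went opposite ways. They were searched on both strands for TGANTCA (the AP-1 motif), TATAAA (the TATA box) and the NF-κB consensus, which were found in 6.34%, 12.9% and 6.33% of 33469 promoters of this length. Capitals mark a match.
Plaur, chr1:89181113-89181362, + strand: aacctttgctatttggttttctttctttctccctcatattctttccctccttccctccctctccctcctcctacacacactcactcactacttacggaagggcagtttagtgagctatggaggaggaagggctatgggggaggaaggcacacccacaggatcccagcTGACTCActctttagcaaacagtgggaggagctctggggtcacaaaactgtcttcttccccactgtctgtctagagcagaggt
Serpinb2, chr13:24055771-24056020, + strand: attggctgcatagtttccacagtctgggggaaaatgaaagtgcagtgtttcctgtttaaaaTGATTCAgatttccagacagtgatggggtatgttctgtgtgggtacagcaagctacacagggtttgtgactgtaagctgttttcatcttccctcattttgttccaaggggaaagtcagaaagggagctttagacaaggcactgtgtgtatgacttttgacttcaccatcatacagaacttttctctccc
Htra1, chr1:194927819-194928068, + strand: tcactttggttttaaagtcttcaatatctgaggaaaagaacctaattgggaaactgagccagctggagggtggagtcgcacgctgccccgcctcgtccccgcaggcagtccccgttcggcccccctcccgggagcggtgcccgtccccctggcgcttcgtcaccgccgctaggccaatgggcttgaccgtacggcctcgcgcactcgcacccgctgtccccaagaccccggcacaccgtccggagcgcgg
The AP-1 motif was matched once in Plaur, starting 83 bases before the start of the gene, and once in Serpinb2, 189 bases before it. No motif was matched in these windows of Htra1, Htra3, Plau and Serpine2. GC content was 51.2% in Plaur, 43.2% in Serpinb2 and 66.0% in Htra1, against a median of 51.2% over all promoters. A match describes letters and not a binding site.

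A broad list of other genes of the plasminogen system moved mostly upward in mouse and in no common direction in rat. It includes integrins and endocytic receptors that also have other roles, and was written with earlier results of these data known. Of 18 tested in rat, 4 were higher and 4 lower, close to the 18.3% and 16.8% of all genes, with a median log2 fold change of 0.02 against 0.01 over all genes. Of 19 tested in mouse, 15 were higher and 4 lower, against 37.4% and 37.7% of all genes, with a median of 0.97 against -0.02 over all genes. With library size alone, 12 were higher and 6 lower in mouse, and Itgb1 and S100a10 changed direction. Over all mouse genes, 49.8% of the calls were upward with TMM and 31.4% with library size alone.

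Serping1, the inhibitor of complement C1, rose by 1.65 on the log2 scale in rat (SE 0.14) and 1.29 in mouse (SE 0.09). Eno1, a glycolytic enzyme that also binds plasminogen at the cell surface, rose by 0.26 (SE 0.08) and 1.52 (SE 0.02). Lrp1, the endocytic receptor that clears activator and inhibitor complexes, was not called in rat, at 0.03 (SE 0.08), and rose by 1.09 in mouse (SE 0.02).

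Some genes of this list went in opposite directions. Serpini1 (neuroserpin, an inhibitor of tissue plasminogen activator) stood at -0.82 on the log2 scale in rat (SE 0.14) and at 3.47 in mouse (SE 0.12). Vldlr, a receptor of the LDL receptor family, had -0.42 (SE 0.10) and 2.11 (SE 0.03). Mrc2, a collagen receptor associated with the urokinase receptor, had -0.33 (SE 0.08) and 0.47 (SE 0.03). S100a10, a plasminogen-binding partner of annexin A2, had -0.36 (SE 0.08) and 0.18 (SE 0.04), the latter -0.10 with library size alone. Plasminogen itself was barely counted, with 5 Plg reads over RC and 8 over RM, and 3 over MC and 2 over MM. It was not tested, like Cpb2, F12, Klkb1, Vtn and Hgfac in both species, Hgf and Hpn in rat, and Serpinf2 and Itgam in mouse, of which none had more than 30 reads over a species.

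**Figure D4:**
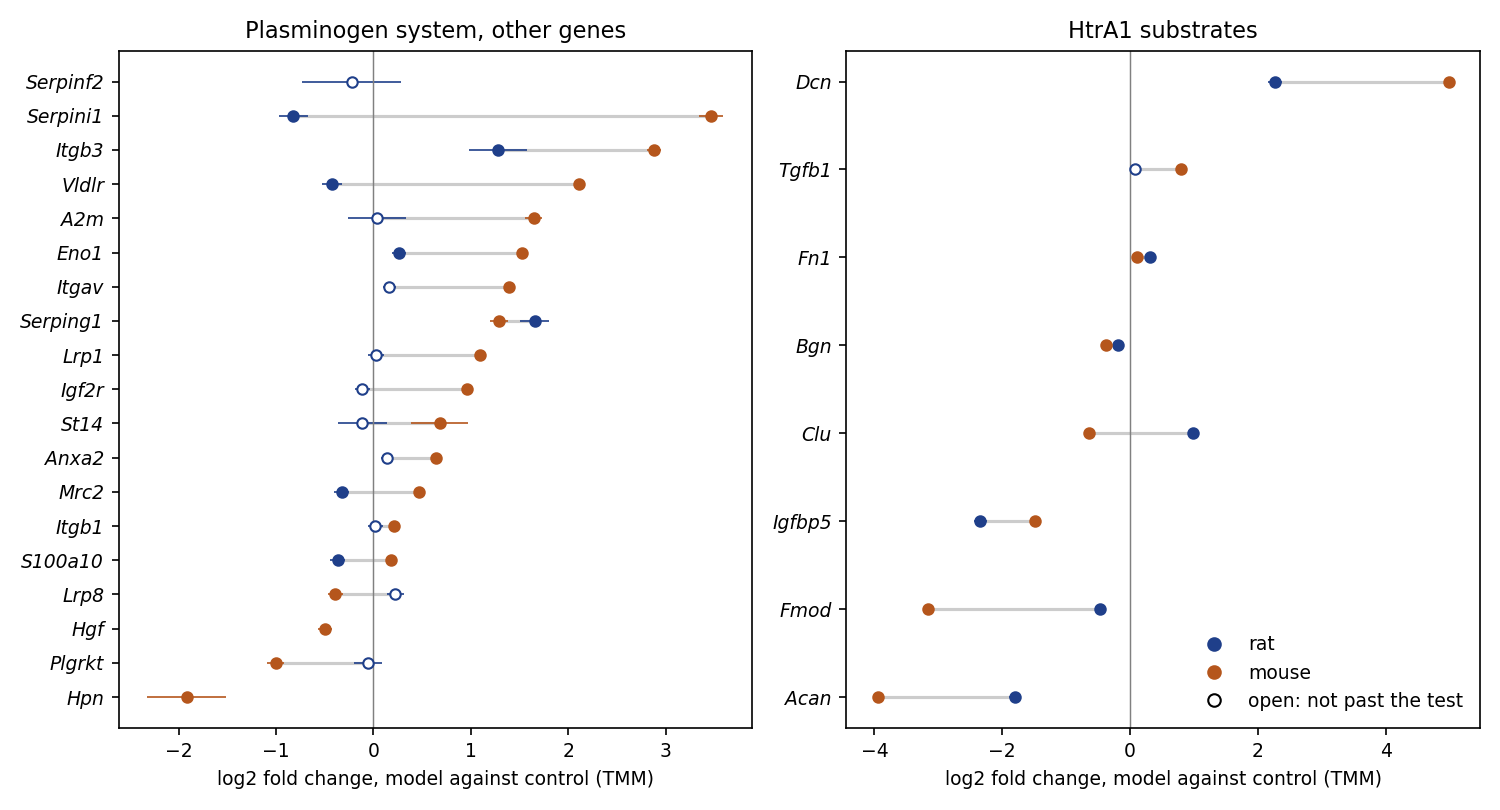
Log2 fold change of model over control (TMM scaling) for other genes of the plasminogen system that were tested and are reported here (left) and the matrix and growth factor genes whose proteins HtrA1 is known to cleave or bind (right). Points are rat and mouse estimates, bars are standard errors, grey lines join the species, and open points were not past the test. Serpini1, Vldlr, Mrc2, S100a10 and Clu were called in opposite directions in the species, with S100a10 in mouse turning below 0 with library size alone.

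Of the other HtrA genes, Htra2, which encodes a mitochondrial protease, fell in both species, with log2 changes of -0.30 (SE 0.09) and -0.58 (SE 0.08). Htra4 rose by 1.97 in rat (SE 0.30), from a mean of 0.226 to 0.898 FPKM, and was not called in mouse, at -0.10 (SE 0.34). Of 8 genes for proteins that HtrA1 is known to cleave or bind, 3 were higher and 4 lower in rat and 3 higher and 5 lower in mouse. Of all genes, 18.3% were higher and 16.8% lower in rat, and 37.4% and 37.7% in mouse, so that the share higher in mouse is close to that of all genes. Their median log2 fold changes were -0.05 and -0.51, against 0.01 and -0.02 over all genes. Acan, the aggrecan core protein, fell, at -1.80 in rat (SE 0.09) and -3.94 in mouse (SE 0.05). Igfbp5, a binding protein of insulin-like growth factors, fell, at -2.34 (SE 0.10) and -1.49 (SE 0.03), as did Fmod (fibromodulin), at -0.47 (SE 0.07) and -3.17 (SE 0.03). Dcn (decorin) rose by 2.27 (SE 0.11) and 4.99 (SE 0.03). Clu, a secreted chaperone, was opposite, at 0.99 in rat (SE 0.07) and -0.65 in mouse (SE 0.06), the directions of Htra1. Fn1 changed direction in mouse with the scaling, and with library size alone 2 of the 8 were higher and 6 lower there.

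Of the other serpins, 2 of 9 tested were lower in rat and none higher, where 16.8% of all genes were lower and 18.3% higher, with a median of -0.08. In mouse 3 of 10 were higher and 6 lower, against 37.4% and 37.7% of all genes, with a median of -0.53 (-0.81 with library size alone). Serpinh1, the collagen chaperone HSP47, fell, at -0.87 in rat (SE 0.07) and -1.33 in mouse (SE 0.02), as did Serpinf1 (PEDF), at -0.59 (SE 0.08) and -0.17 (SE 0.03). Serpina3n rose by 1.96 in mouse (SE 0.05), where Serpinb8 fell, at -2.50 (SE 0.09), and Serpinb1a too, at -2.17 (SE 0.10). In rat, Serpinb7 at -1.18 (SE 0.44) and Serpina1 at 0.80 (SE 0.30) were not called.

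Of the clotting and thrombin-receptor genes, 5 of 11 tested were higher and 2 lower in rat, with a median of 0.06, and 7 of 10 were higher and 2 lower in mouse, with a median of 0.54. Over all genes, 18.3% were higher and 16.8% lower in rat, and 37.4% and 37.7% in mouse. With library size alone, 5 were higher and 2 lower in mouse, with a median of 0.26. F3 (tissue factor, which starts clotting) rose by 2.11 in rat (SE 0.11) and 1.28 in mouse (SE 0.08). Tfpi2, an inhibitor of plasmin and other serine proteases, rose by 4.34 in rat (SE 0.25) and was not called in mouse, at -0.05 (SE 0.37). F2rl1, a receptor cut by trypsin-like proteases, rose by 0.88 in rat (SE 0.20) and 0.81 in mouse (SE 0.20). F13a1, the clot-crosslinking factor XIII A chain, fell, at -2.42 (SE 0.20) and -0.53 (SE 0.12). Procr and Thbd, which encode receptors of the protein C pathway, rose in mouse, by 4.90 (SE 0.05) and 0.52 (SE 0.03). In rat they stood at 0.06 (SE 0.14) and -0.24 (SE 0.09) and were not called. F5 was opposite, at -0.40 in rat (SE 0.11) and 4.34 in mouse (SE 0.07).

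The list of other serine proteases held secreted enzymes and also the membrane-anchored Furin, Fap, Dpp4 and Tmprss6. Fap is also among the fibroblast markers below. Of this list, 2 of 9 tested in rat were higher and 4 lower (median -0.27), against 18.3% and 16.8% of all genes. In mouse 2 of 10 were higher and 7 lower (median -1.28), against 37.4% and 37.7%, and with library size alone the counts were the same and the median -1.55. Prss23 fell, at -1.17 in rat (SE 0.08) and -3.36 in mouse (SE 0.07), as did Pcsk6, a proprotein convertase, at -0.78 (SE 0.08) and -3.53 (SE 0.07). Pcsk5, another convertase, rose by 0.56 (SE 0.08) and 3.81 (SE 0.08). Prss12 fell, at -2.05 in rat (SE 0.23) and -0.41 in mouse (SE 0.16), and Klk10 stood at -3.45 in mouse (SE 0.16), where it fell.

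Markers of cell types moved with the stimulation too. All 12 chondrocyte markers were present and fell in both species, where 16.8% of all genes in rat and 37.7% in mouse were lower. The median change on the log2 scale was -1.35 (rat) and -2.99 (mouse), against 0.01 and -0.02 over all genes. Their summed FPKM was 5492, 6107 and 5429 in the RC libraries and 2188, 2213 and 2175 in RM. It was 2564, 2535 and 2588 in MC and 231, 235 and 245 in MM. Col2a1, the chain of type II collagen, was the most abundant, at 2838 ± 298 FPKM (SD, n = 3) in RC, 943 ± 16.3 in RM, 1347 ± 23.8 in MC and 93.7 ± 2.22 in MM. In bulk RNA, fewer cells of a type and less RNA per cell cannot be told apart.

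Of 9 fibroblast and synovial markers, 3 were higher and 2 lower in rat, and 5 higher and 4 lower in mouse, where library size alone gave 3 and 5. Of all genes, 18.3% were higher and 16.8% lower in rat, and 37.4% and 37.7% in mouse. Their summed FPKM was 3920, 4470 and 3979 in RC, 3093, 3139 and 3179 in RM, 2356, 2358 and 2381 in MC and 1432, 1441 and 1446 in MM, with Col1a1 the most abundant in each group. The sum does not stand for each marker, as Prg4 (lubricin) rose by 5.79 on the log2 scale in rat (SE 0.08) and 3.36 in mouse (SE 0.04), Pdpn by 0.23 (SE 0.07) and 2.73 (SE 0.03), and Cd55 by 1.85 (SE 0.16) and 1.78 (SE 0.05). Col1a1 fell, at -0.90 in rat (SE 0.08) and -1.48 in mouse (SE 0.02). Col3a1 stood at -0.98 in rat (SE 0.06) and 0.16 in mouse (SE 0.02), the latter -0.12 with library size alone. In mouse, Thy1 at -1.56 (SE 0.08), Dpt at -3.06 (SE 0.21) and Fap at -1.59 (SE 0.22) fell, and none of these was called in rat. Pdgfra was not called in rat, at -0.08 (SE 0.08), and stood at 0.26 in mouse (SE 0.03), or -0.02 with library size alone. Of the macrophage and leukocyte markers, 2 of 5 tested were higher and 2 lower in rat, and 4 of 4 higher in mouse (3 with library size alone), where 35.1% and 75.0% of all genes were called. Their summed FPKM was 19.7, 23.3 and 21.2 in RC, 35.0, 31.8 and 33.3 in RM, 7.67, 7.38 and 7.41 in MC and 34.4, 37.1 and 35.1 in MM, with Cd14 the most abundant in each group but MC, where it was below Cd68, and Itgam at 0 counts in mouse. Col1a1 and Col3a1 were thus abundant in every library. Fap stood at a mean of 16.1 FPKM in RC and 19.3 in RM, and at 0.929 in MC and 0.253 in MM. Leukocyte markers summed to at most 37.1 FPKM.

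Endothelial markers summed to 0.109, 0.0888 and 0.136 FPKM in RC, 0.153, 0.113 and 0.0719 in RM, 0.593, 0.448 and 0.636 in MC and 0.793, 0.769 and 0.737 in MM, with Tek the most abundant over the 6 libraries of each species, though below Vwf in RC and MM. None was tested in rat, and 1 of 2 was higher and 1 lower in mouse, close to the 37.4% and 37.7% of all genes. Muscle markers summed to 3.19, 4.18 and 4.15 FPKM in RC, 3.07, 2.92 and 2.67 in RM, 4.34, 4.35 and 3.81 in MC and 0.390, 0.728 and 0.816 in MM, with Des the most abundant over the 6 libraries of each species, though below Acta1 in MM. Of these, none of 1 tested was called in rat, where 35.1% of all genes were called, and 2 of 2 were lower in mouse, where 37.7% of all genes were lower. The part of these marker changes in the changes of the 7 genes was not tested.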

How the data were processed

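RNA was sequenced on an Illumina HiSeq instrument from NEBNext Ultra libraries. The authors deposited a table per species with raw read counts per Ensembl gene and library, not normalized. The deposited FPKM values in these tables equal the count divided by a whole-number gene length and the column's total, within 0.1% for 100% of 73953 rat and 78551 mouse values from at least 20 counts. The submitters' processing notes name HISAT2, HTSeq 0.11.2 and the builds GRCm38 and Rnor_6.0. Use of strand in counting is not given in those sources. The length behind the mouse FPKM equalled the merged exons of GENCODE M21 (GRCm38) within 1 base for 13852 of 14360 genes, so mouse coordinates come from it. Rat promoters come from RefSeq (GRCr8) and were not used for the counts.

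Counts were tested in R 4.3.3 with edgeR 4.0.16 (filterByExpr, TMM, glmQLFit and glmQLFTest), each species on its whole table without covariates, with Benjamini-Hochberg adjustment over the genes tested. The difference between the species was fitted over all 12 libraries on the 10912 genes tested in both, out of 14351 shared by symbol, with scaling set within each species. The biological coefficient of variation was 0.106 in rat and 0.0318 in mouse. No library pair agreed within sampling noise. At these depths, 3 counts, the limit that a count of 0 allows, are 0.116 to 0.178 CPM. The scripts were tested on simulated data with known answers. Alternatives were DESeq2 1.42.0, library size alone, no filter, limma 3.58.1 on log2(FPKM + 1) and log2(FPKM + 0.1), leaving out each library, the replicate block and the study's criteria for DEGs.

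The members and gene lists were chosen with earlier results of these data known. Named genes were all 7 members, the 4 genes of each list with the smallest adjusted P per species and those called in opposite directions. Some genes that this rule takes are not reported here. Of marker lists they were the most abundant gene over the libraries of a species, any gene above it in a group and genes at 0 counts, and for likeness the 2 nearest genes per member. Genes named for a change of direction with the scaling, the changes of fibroblast markers and genes with overlapping spans were chosen after their values were seen.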

Additional observations from a re-analysis of the deposited data

Results flagged for a closer look

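The responses of the species differed by the edgeR test of mouse minus rat for 5 of the 7 genes, where 63.8% of all genes differed. Each group had 3 libraries, and the explanation was not tested. On the log2 scale the differences were 1.89 for Plaur, 0.87 for Plat, 6.77 for Serpinb2, -0.66 for Htra1 and -0.36 for Htra3. Serpinb2 rests on 4 counts in the mouse control group.

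Of the other genes described, those called in opposite directions in the species are given here, and others differed as much. The difference was 4.29 for Serpini1, 0.54 for S100a10, 2.53 for Vldlr, 0.79 for Mrc2, -1.64 for Clu and 4.74 for F5. It was 1.14 for Col3a1, and among the leukocyte markers 1.91 for Csf1r and 1.89 for Lyz2. With library size alone it was 0.25 for S100a10, 0.50 for Mrc2 and 0.85 for Col3a1. S100a10 and Col3a1 were then lower in MM than in MC, and Csf1r was not called in mouse. Of all genes tested in both species, 63.8% differed. No test of single libraries standing apart was run on the groups of 3.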

How the results depend on the processing

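Apart from the criteria for DEGs, all 7 genes kept their direction and call in mouse under every alternative run, and in rat under every alternative that used all libraries. Leaving out a library gave log2 fold changes in rat of -0.43 to -0.23 for Plau, 0.37 to 0.60 for Plaur and 0.57 to 0.95 for Serpinb2, with the losses of call named above, where fewer samples were tested. The differences between the species then ran from -0.0932 to 0.1109 for Plau, 0.13 to 0.16 for Serpine2 and -0.48 to -0.29 for Htra3. For Plau the difference was 0.0102 with DESeq2, 0.0077 without a filter, -0.2985 with library size alone and -0.2672 and -0.2875 with limma on log2(FPKM + 1) and log2(FPKM + 0.1). For Serpine2 it was 0.1531 with DESeq2, -0.1557 with library size alone and -0.1572 and -0.1554 with limma. With library size or limma, other differences moved but kept their call. With library size alone they were 0.58 for Plat and -0.65 for Htra3, and with limma on log2(FPKM + 1) 0.42 for Plat and 1.92 for Serpinb2. In mouse, library size alone gave -0.60 for Plau, 0.51 for Serpine2 and -0.57 for Htra1, and limma on log2(FPKM + 1) gave 2.60 for Serpinb2. Limma on log2(FPKM + 0.1) gave differences of 0.56 for Plat, 4.59 for Serpinb2 and -0.63 for Htra3. Library size, which FPKM also uses, and TMM differ by the shift of all mouse genes given above. Applied to the edgeR fits here, the study's criteria for DEGs left 1 of the 7 genes in rat and 4 in mouse, and 1136 and 3781 of all genes. The paper counted its DEGs among genes shared by the species, and its own counts differ from these. A difference of at least 0.85 beside the adjusted P left 3 of the 7 and 3304 of all genes.

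With the replicate block, 7 genes were called in rat and 7 in mouse, with 4534 and 11047 of all genes, and the Plau difference was 0.0041. The numbers did not pair the libraries, as correlations between libraries of the same number were at most 0.0849. Low counts limit Serpinb2 in mouse and Plg in both species.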
